A study of Mus musculus with 12 samples.

Results

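Messages of the cytosolic translation initiation and elongation factors were followed in the triceps brachii, a muscle of the upper forelimb. The genes were taken from the RNA-seq table by symbol, as those starting with Eif1 to Eif6, Eef1 or Eef2, leaving out the Eif4ebp genes that encode inhibitors of the cap-binding factor. This gave 61 of the 10187 genes in the table, measured in all 12 mice. A choice by symbol also took in genes that are not themselves factors of translation. Among them were the 4 kinases of eIF2 (Eif2ak1 to Eif2ak4), the kinase of eEF2 (Eef2k) and the shuttling protein of eIF4E (Eif4enif1). The 4 Argonautes of RNA silencing under their old names (Eif2c1 to Eif2c4) were also taken in.

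The mice were adult C57/BL6 males in 4 groups of 3. Mice of IW (inactive, wild-type) and AW (active, wild-type) had normal Mstn, and those of IM (inactive) and AM (active) were myostatin-reduced. Myostatin, encoded by Mstn, is a secreted inhibitor of muscle growth. The myostatin-reduced mice carried a floxed Mstn gene that Cre recombinase cut after tamoxifen, and all 12 mice, wild-type included, ate chow with 0.025% tamoxifen for 6 weeks. The tissue in which Cre was expressed, and whether wild-type mice carried it, were not given in the sources used here. Active mice had a running wheel for 12 weeks from 6 months of age, whereas inactive mice had none. The authors matched the sampled myostatin-reduced and wild-type mice by how they ran. Which mice were partners was not given in the sources used here. Active mice were also moved to cages of their own, after sharing cages in groups of 2 or 3 until then, so running and single housing cannot be told apart.

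Translation of most messages starts when the eIF4F complex, made of the cap-binding eIF4E, the scaffold eIF4G and the helicase eIF4A, prepares a message for the small ribosomal subunit. That subunit carries eIF3, a many-subunit scaffold, and the ternary complex of eIF2, GTP and initiator tRNA. eIF2 is recharged with GTP by eIF2B, and phosphorylation of eIF2 by its kinases blocks this exchange and lowers initiation. eEF1A brings charged tRNA to the ribosome, eEF1B recharges eEF1A, and eEF2 moves the ribosome along the message. Synthesis of protein by these factors is a known step in the growth of muscle.

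The values were normalized read counts, which were not divided by gene length. An estimated 9022691 to 12185351 reads per mouse lay in the genes of the table, so that 3 reads corresponded to 0.231 to 0.316 normalized reads, a floor that covers counting error only. Mstn was at 79.7 to 138 normalized reads in the 6 wild-type mice and at 8.70 to 21.6 in the 6 myostatin-reduced mice. All 10 fibre markers of the muscle list were in the table, and they summed to 193026 to 221207 normalized reads in IW, 235069.8 to 242083 in IM, 168868 to 195895 in AW and 175843 to 213584 in AM. With activity 2 of these 10 were called higher and 1 lower, and the 1 tested fat marker was called higher. The summed level of the 11 slow-fibre markers differed widely between mice of a group, from 84.5 to 1329 normalized reads in IW, from 142 to 1773 in AW and from 112 to 1304 in AM, while the IM mice lay at 73.2 to 104. The 8 endothelial markers summed to 252 to 265 in IM, 284 to 366 in IW, 283 to 479 in AW and 325 to 539.7 in AM, and 6 of the 8 passed the test as higher in active mice.

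Together the 61 genes held 0.979% to 1.04% of all normalized reads in each mouse. In every mouse 52.2% to 54.9% of that sum came from the same 4 genes, the elongation factors Eef2 and Eef1a2 and the scaffold genes Eif4g2 and Eif4g1. On levels divided by transcript length, the highest were Eef1a2 with a mean of 817 normalized reads per kb (range 687 to 1050 over the 12 mice), Eef2 with 552 (484 to 611) and Eif4g2 with 226. The ranges of Eef1a2 and Eef2 did not overlap with each other or with the gene next in order. Eif4g2 overlapped with Eif1, at 211 per kb, which encodes the factor that guards the choice of start codon. Eif5a, Eif4g1 and Eif4a2 followed at 163, 152 and 144 per kb with overlapping ranges, and all stood above Eif3i at 83.9. Eif3i had the highest mean per kb of the eIF3 subunit genes, but its range overlapped with that of Eif3e, at 80.7. The lowest was the Argonaute gene Eif2c3 at 0.195 per kb, and above it came the eIF2 kinase genes Eif2ak3 at 1.15, Eif2ak2 at 1.55 and Eif2ak4 at 1.77. Most neighbours between these ends overlapped over the 12 mice.

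**Figure D1:**
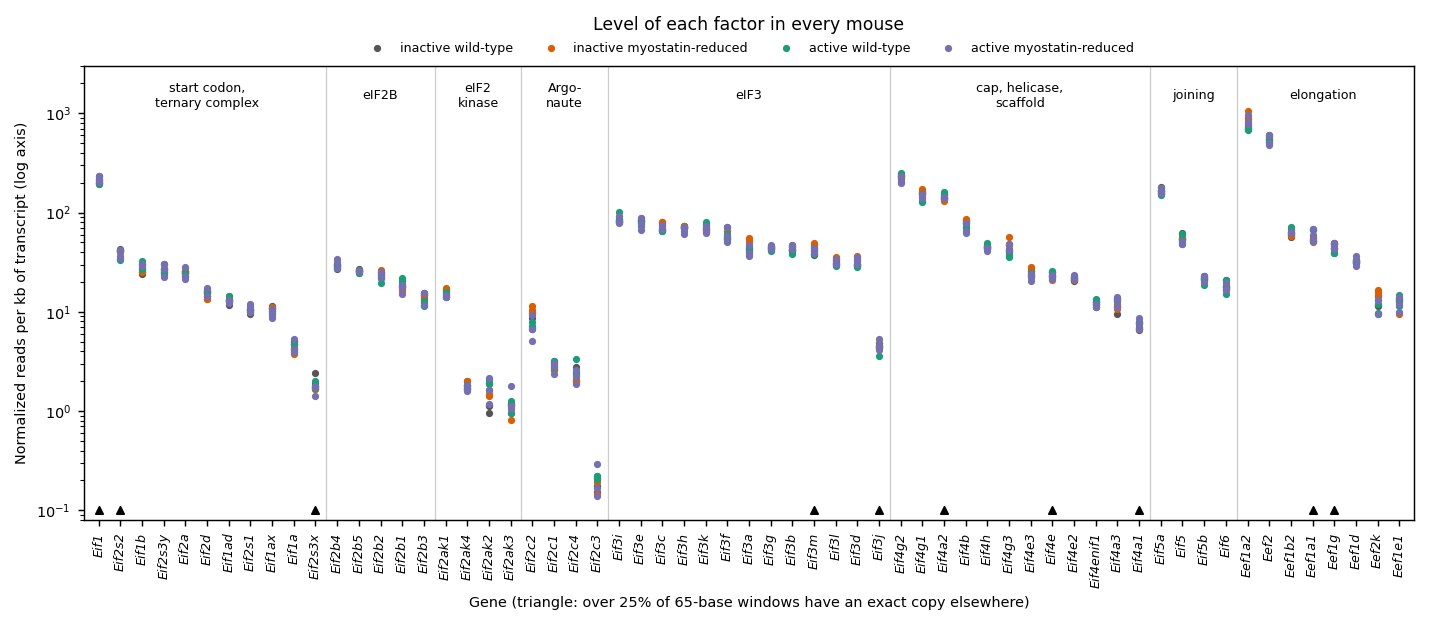
Level of each of the 61 genes in each mouse, in normalized reads per kb of transcript on a log axis, with 1 point per mouse coloured by group and the genes grouped by role and ordered by mean level. Eef1a2 and Eef2 stood highest, the points of a gene lay close together in all groups, and triangles mark the 10 genes in which over 25% of 65-base windows of the transcript have an exact copy elsewhere in the genome.

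Several factors are encoded by pairs of similar genes, and in each pair 1 gene held most of the reads. eEF1A is encoded by Eef1a1, used by most tissues, and Eef1a2, the form of adult muscle and nerve, and Eef1a2 was 14.3 times Eef1a1 per kb. The helicase gene Eif4a2 was 19.6 times Eif4a1 per kb, and Eif2s3y, the copy of the gamma subunit gene of eIF2 on the Y chromosome, was 14.6 times its partner Eif2s3x on the X chromosome. The lower gene of each of these pairs shared more of its sequence with other places in the genome. Of all 65-base windows of the transcript, the length of the reads, 61.1% in Eef1a1, 76.5% in Eif4a1 and 92.3% in Eif2s3x had at least 1 exact copy outside the gene, against 0.0% in Eef1a2, 30.5% in Eif4a2 and 0.0% in Eif2s3y. How reads that map to several places were counted was not given in the sources used here, so the share of copied sequence and a lower level cannot be told apart for these genes. When the same reads were divided by the windows with no copy, the ratios were 5.51 for Eef1a2 to Eef1a1, 6.66 for Eif4a2 to Eif4a1 and 1.14 for Eif2s3y to Eif2s3x. On that scale the X and Y copies were thus close. Stretches of coding sequence from the mm9 genome (NCBIM37) show how near the pairs are. Each is 65 bases of the coding strand, 5′ to 3′, and capitals mark the bases that differ between the partners.
Eef1a1 (chr9:78327191-78327255, minus strand): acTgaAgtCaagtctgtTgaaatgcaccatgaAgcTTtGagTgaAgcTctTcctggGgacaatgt
Eef1a2 (chr2:180884487-180884551, minus strand): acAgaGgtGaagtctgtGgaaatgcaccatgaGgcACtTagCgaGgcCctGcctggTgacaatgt
Eif2s3x (chrX:91449321-91449385, minus strand): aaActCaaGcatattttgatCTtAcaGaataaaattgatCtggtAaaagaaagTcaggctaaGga
Eif2s3y (chrY:351139-351203, plus strand): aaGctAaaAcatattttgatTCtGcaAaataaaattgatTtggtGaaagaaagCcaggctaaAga
Eif4a1 (chr11:69483690-69483754, minus strand): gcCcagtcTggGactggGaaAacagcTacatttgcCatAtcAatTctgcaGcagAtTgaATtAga
Eif4a2 (chr16:23109213-23109277, plus strand): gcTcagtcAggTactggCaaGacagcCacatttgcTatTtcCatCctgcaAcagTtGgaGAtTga
The stretches were chosen to have the most copies for the lower gene and then the fewest for its partner, so their copy numbers follow that choice. The stretch of Eef1a1 had 6 exact copies elsewhere in the genome, that of Eif2s3x had 2 and that of Eif4a1 had 4, whereas the stretches of their partners had none. The partners differed at 13, 11 and 16 of the 65 bases, and over the whole coding sequence they were 79.9%, 86.3% and 77.6% identical, for the eEF1A, eIF2 gamma and eIF4A pairs in turn. A read from these stretches could thus be assigned between the partners, but a read of the lower gene also matched its copies. The eIF3 subunit gene Eif3j, with 80.1% of windows copied and 4.51 normalized reads per kb, and the eEF1 gamma gene Eef1g, with 63.6% copied and 45.3 per kb, shared this limit. The pair Eif1 and Eif1b went the other way. The higher gene Eif1 had 47.6% of windows copied and 211 normalized reads per kb, against 0.0% and 27.8 per kb in Eif1b. No window of 29 of the 61 transcripts had a copy.

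**Figure D2:**
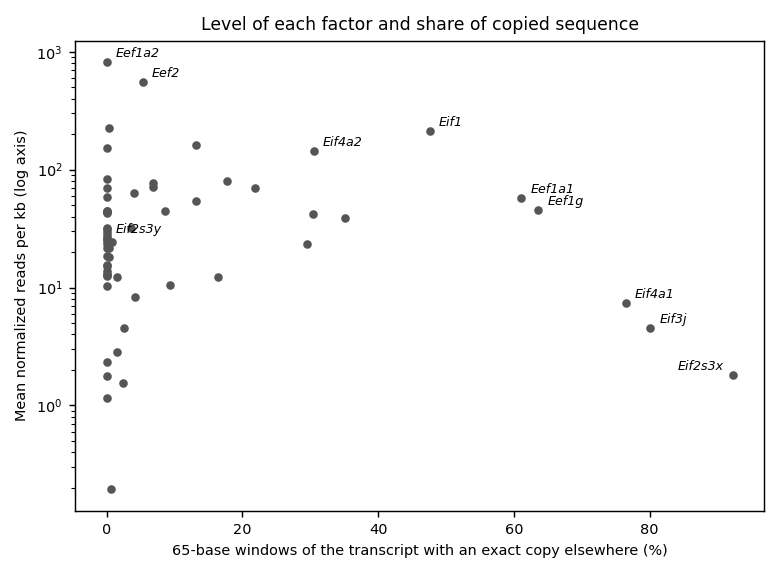
Mean level over the 12 mice, in normalized reads per kb on a log axis, against the percent of 65-base windows of the transcript that have an exact copy elsewhere in the genome, with 1 point per gene. The 5 genes over 50% copied were Eif2s3x, Eif3j, Eif4a1, Eef1g and Eef1a1, at 1.80 to 57.3 normalized reads per kb.

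Other families were also compared per kb. The cap-binding genes Eif4e, Eif4e2 and Eif4e3 had 23.4, 21.7 and 24.3 normalized reads per kb, and their ranges overlapped. Among the scaffolds, Eif4g2, whose product lacks the site for eIF4E, stood at 226 per kb, Eif4g1 at 152 and Eif4g3 at 43.1, and these 3 ranges did not overlap. The heme-regulated kinase gene Eif2ak1 had 15.5 per kb and was the only eIF2 kinase gene over the level needed for the test. Among the Argonaute genes Eif2c2 was highest at 8.34 per kb, followed by Eif2c1 at 2.86, Eif2c4 at 2.34 and Eif2c3.

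The genes varied little between mice. Among the 56 genes with a mean of at least 10 normalized reads, which entered the test, the highest of the 12 values was under 1.5 times the lowest in 49. The ratio ran from 1.09 in Eif2b5, the catalytic subunit gene of eIF2B, to 2.25 in Eif2c2. Eif2b5 was at 85.5, 83.2 and 81.8 normalized reads in IW, 78.7, 81.8 and 83.5 in IM, 84.0, 80.2 and 79.3 in AW and 82.8, 81.4 and 82.8 in AM. No group stood apart for Eif2b5. The SD within groups had a median of 0.10 on the log2 scale over the 56 genes and 0.12 over the 7247 genes tested.

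Comparison of active with inactive mice addressed the effect of wheel running, together with single housing, over both genotypes. Of the 56 genes 5 (8.93%) passed the test, against 14.5% of all 7247 genes. The gene of the eIF4A helper eIF4B, the scaffold gene Eif4g1 and the kinase genes Eef2k and Eif2ak1 were under-expressed in active mice, and Eef1b2, the exchange factor subunit of eEF1B, was over-expressed. Differences were tested with limma on log2(normalized reads + 1), and a gene was called at a p-value under 0.05 after Benjamini-Hochberg adjustment over the 7247 genes. The 4 lower and 1 higher genes stand beside 6.51% and 7.99% of all genes called lower and higher. The 5 folds, active over inactive, ran from 0.790 in Eef2k to 1.11 in Eef1b2.

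Eif4b (chr15:101904204-101927603, plus strand) was at 323, 301 and 315 normalized reads in IW, 319.6, 331 and 310.0 in IM, 295, 269.8 and 276 in AW and 251, 239 and 300.3 in AM. Every active mouse of a genotype was below every inactive mouse of that genotype. The log2 change was -0.22 (SE 0.057, adjusted p = 0.0233). Eif4g1 (chr16:20668386-20692957, plus strand) was at 869, 937 and 888 in IW, 891, 914 and 984 in IM, 868, 733 and 728 in AW and 829.7, 794 and 860.3 in AM. The groups did not overlap within a genotype, although 1 AW mouse lay just below the lowest IW mouse. The log2 change of Eif4g1 was -0.19 (SE 0.056, adjusted p = 0.0397).

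Eef1b2 (chr1:63223399-63227060, plus strand) went the other way. Its level was 119, 111 and 122 normalized reads in IW, 115, 117 and 111 in IM, 131, 136 and 140.3 in AW and 122.7, 121 and 124 in AM. Active mice were above inactive mice of the same genotype in both genotypes, and the change was 0.16 on the log2 scale (SE 0.041, adjusted p = 0.0250). These 3 genes were the only members of the 56 in which the groups did not overlap in both genotypes in 1 direction (5.36%, against 7.81% of all genes tested).

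The 2 kinase genes were lower in active mice. Eef2k (chr7:127986345-128050733, plus strand), whose product phosphorylates and inactivates eEF2, was at 73.1, 92.3 and 75.04 in IW, 101, 93.3 and 106 in IM, 76.2, 60.03 and 61.9 in AW and 84.3, 60.6 and 82.7 in AM. The IM mice were highest, and IW overlapped with AW. Its log2 change was -0.34 (SE 0.095, adjusted p = 0.0314). Eif2ak1 (chr5:144578657-144665125, plus strand) was at 65.01, 74.0 and 68.3 in IW, 72.0, 72.5 and 74.6 in IM, 68.9, 62.6 and 61.5 in AW and 60.5, 61.5 and 63.6 in AM. The AM mice were all below the IM mice, whereas AW and IW overlapped, and the log2 change was -0.17 (SE 0.048, adjusted p = 0.0340).

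**Figure D3:**
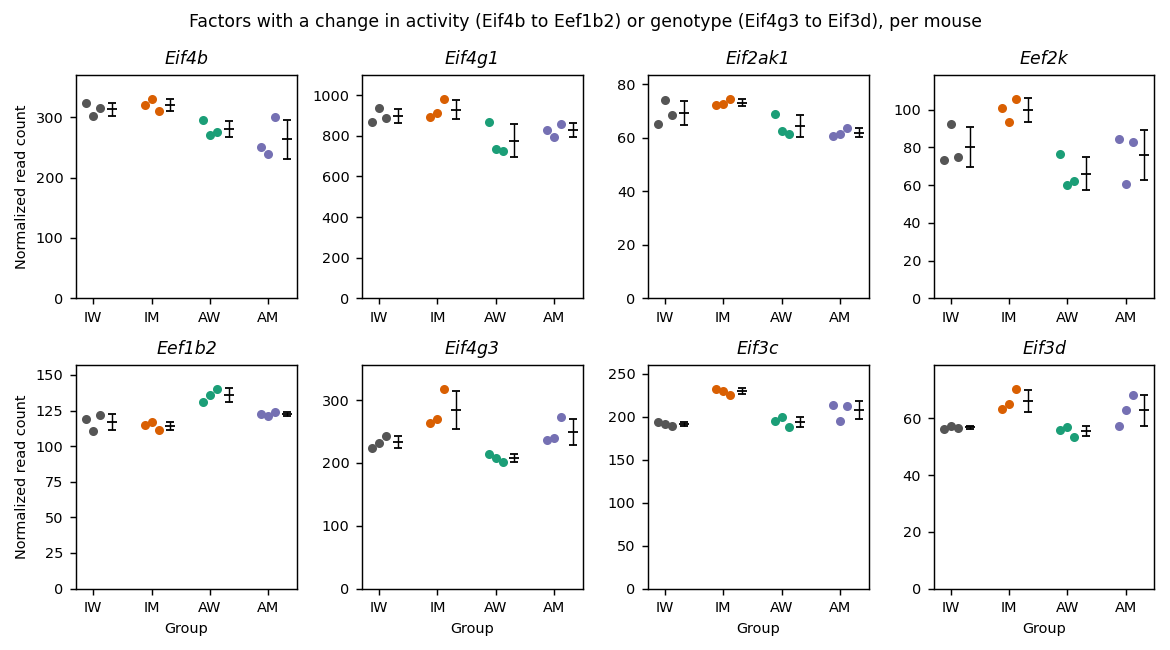
Normalized read counts of the 8 genes that passed the test for activity or genotype, with 1 point per mouse and the mean and SD of each group (n = 3) as a bar. Eif4b and Eif4g1 were lower and Eef1b2 higher in both active groups, and Eif4g3 was higher in IM than in IW and in AM than in AW.

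Over the 56 genes the median log2 change with activity was -0.03, and over all genes it was -0.02. The members ran from -0.39 to 0.20. The 95% interval of the change lay within 0.5 of 0 on the log2 scale in 54 of the 56 genes (96.4%, against 89.0% of all genes) and within 0.25 in 39 (69.6%, against 45.9%). At an unadjusted p under 0.05 there were 14 of the 56 genes, against 30.2% of all genes. Just short of the adjusted threshold were Eif4g3 at -0.18 and Eif3a, the largest eIF3 subunit, at -0.20 (both adjusted p = 0.0599), and Eif2c2 at -0.39 (SE 0.128, adjusted p = 0.0613). Roles were assigned by symbol, so Eef2k counted with elongation and Eif4enif1 with cap binding. By role, 2 of the 12 genes of cap binding, helicase and scaffold, 2 of the 8 of elongation and the 1 tested kinase of eIF2 were called. None was called of the 13 of eIF3, 10 of start codon choice and the ternary complex, 5 of eIF2B, 4 of subunit joining or 3 Argonautes.

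The calls with activity depended on single mice. Without IM mouse 1, AW mouse 2 or AW mouse 3 in turn 0 of the 56 genes were called, without IW mouse 2, IM mouse 3 or AM mouse 2 there was 1, without IM mouse 2 there were 2, and without AW mouse 1 or AM mouse 1 there were 9 and 8. Counts over all genes moved too, from 1051 with every mouse to 721, 596 and 552 without IM mouse 1, AW mouse 2 or AW mouse 3, to 583, 656 and 614 without IW mouse 2, IM mouse 3 or AM mouse 2, to 736 without IM mouse 2, and to 1488 and 1332 without AW mouse 1 or AM mouse 1. The slow-fibre score of a mouse, the mean log2 deviation of the slow-fibre markers, was -2.21 to -1.38 in IM, -1.96 to 1.94 in IW, -1.01 to 2.46 in AW and -1.56 to 2.05 in AM. With this score in the model 0 of the 56 genes were called (5.51% of all genes), and the log2 change of Eef2k was -0.18 (adjusted p = 0.189) and that of Eif4b -0.17 (adjusted p = 0.125). Endothelial, fibre and fat markers also moved with activity, and their part in these changes was not tested. In whole muscle, fewer cells of a type and less RNA per cell cannot be told apart.

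**Figure D4:**
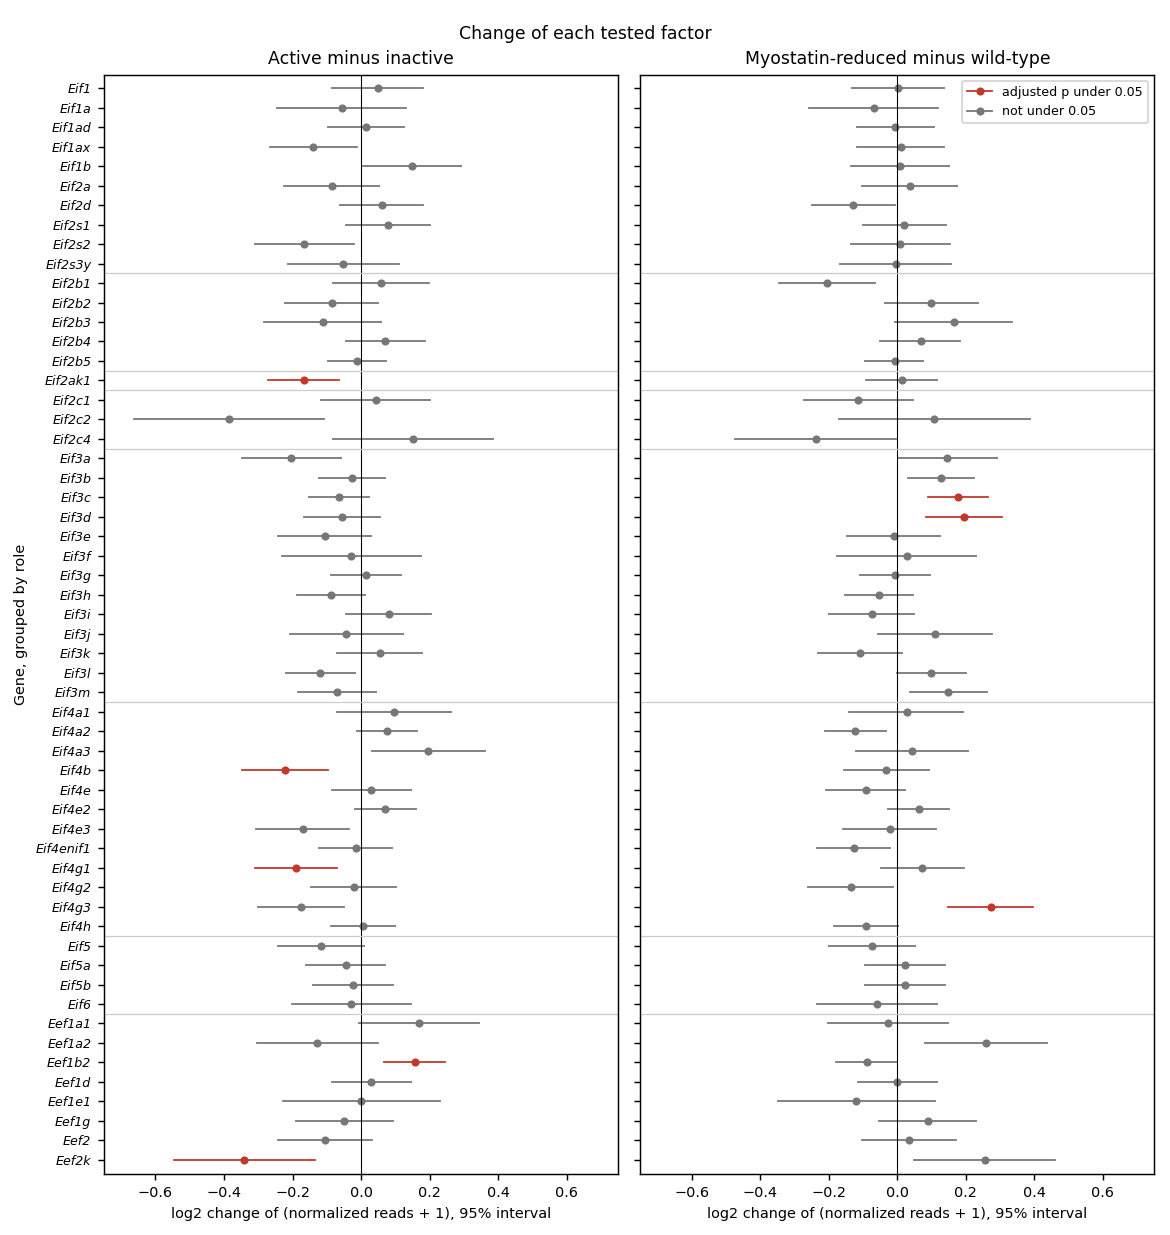
Log2 change of each of the 56 tested genes with activity (left) and genotype (right), as points with 95% intervals from limma on log2(normalized reads + 1), grouped by role. Red marks an adjusted p under 0.05, which 5 genes reached for activity and 3 for genotype, and most intervals lay close around 0.

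The comparison between genotypes addressed the effect of genotype over both activity levels. Of the 56 genes 3 (5.36%) passed the test, against 5.78% of all genes, and all 3 were over-expressed in myostatin-reduced mice, as were 3.57% of all genes. They were the scaffold gene Eif4g3 and the eIF3 subunit genes Eif3c and Eif3d. Eif3c belongs to the core of eIF3, and the product of Eif3d can bind the cap of some messages.

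Eif4g3 (chr4:137548937-137764423, plus strand) was at 224, 232 and 243 normalized reads in IW, 264, 269.9 and 318 in IM, 214, 207 and 201 in AW and 237, 239 and 274 in AM. Myostatin-reduced mice were above wild-type mice at both activity levels, and the change was 0.27 on the log2 scale (SE 0.058, adjusted p = 0.0189). Its level was highest in IM and lowest in AW.

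Eif3c (chr7:133690426-133709880, minus strand) was at 194, 191 and 189 normalized reads in IW, 233, 230.1 and 226 in IM, 195, 199 and 188 in AW and 214, 195 and 213 in AM. All 3 IM mice were above every other mouse, while AM and AW overlapped. The log2 change was 0.18 (SE 0.040, adjusted p = 0.0245). Eif3d (chr15:77789428-77801254, minus strand) was at 56.4, 57.4 and 56.7 in IW, 63.1, 64.9 and 70.5 in IM, 55.8, 57.0 and 53.5 in AW and 57.4, 62.8 and 68.4 in AM. The groups did not overlap at either activity level, and the log2 change was 0.19 (SE 0.051, adjusted p = 0.0443). The call of Eif3d was held in 4 of 19 alternative fits. It was lost without 11 of the 12 mice in turn and with the slow-fibre score as a covariate (adjusted p = 0.0967), and the call of Eif3c was lost without 7 of the 12 mice in turn.

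The next genes did not pass. Eef1a2 was at 1455, 1558 and 1884 normalized reads in IW, 1828, 1759 and 2189.6 in IM, 1526, 1433 and 1437 in AW and 1633, 1699 and 2025 in AM, a log2 difference of 0.26 (adjusted p = 0.0862) in which IW mouse 3 lay among the IM mice. Eif2b1, a regulatory subunit gene of eIF2B, differed by -0.21 (adjusted p = 0.0862) and Eif4a2 by -0.12 (adjusted p = 0.10). In 5 genes, Eif4g3 and Eif3d above and Eif2b1, Eif4h and Eif4a2 below, the genotypes did not overlap at either activity level (8.93%, against 5.37% of all genes).

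The median log2 change with genotype was 0.01 over the 56 genes and -0.01 over all genes, and the members ran from -0.24 to 0.27. Every one of the 56 intervals lay within 0.5 of 0 (92.4% of all genes). Eif2s1, the gene of the eIF2 subunit that the kinases phosphorylate, was at 36.1, 35.9 and 32.4 normalized reads in IW, 36.5, 35.4 and 34.2 in IM, 39.0, 35.7 and 35.9 in AW and 40.6, 33.8 and 37.8 in AM. All 4 groups of Eif2s1 overlapped. Eif4g3 was not called without IW mouse 1 (adjusted p = 0.0511) or AW mouse 3 (adjusted p = 0.0542), and without either of these 0 of the 56 genes were called for genotype, with 206 and 182 of all genes called in place of 419. Without IM mouse 1, 2 or 3 or AM mouse 3 there was 1 call among the 56, with 214, 283, 203 and 246 over all genes.

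The factors of the ternary complex and of its recharging did not pass either test, apart from the kinase Eif2ak1. Eif2s2, the beta subunit gene of eIF2, was at 104, 110.1 and 105 normalized reads in IW, 102, 106 and 105 in IM, 107.9, 86.6 and 84.0 in AW and 92.2, 88.0 and 106 in AM, and its log2 difference with activity was -0.17 (SE 0.067, adjusted p = 0.114). The active mice were split, with AW mouse 1 and AM mouse 3 among the inactive mice. Eif2s3y had group means of 50.2 ± 5.13 in IW, 47.5 ± 1.42 in IM, 46.0 ± 3.58 in AW and 48.4 ± 7.09 in AM (SD, n = 3). The regulatory subunit gene Eif2b1 was at 41.5, 36.5 and 36.4 in IW, 32.8, 35.5 and 34.6 in IM, 44.7, 38.1 and 41.5 in AW and 30.2, 37.2 and 35.9 in AM. It was lower in myostatin-reduced mice at both activity levels without passing the test. Eif2b2, Eif2b3 and Eif2b4, further subunit genes of eIF2B, had means of 37.8, 21.2 and 52.1 over the 12 mice, and their groups overlapped between genotypes at both activity levels.

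Factors of subunit joining, and of elongation other than Eef1b2 and Eef2k, were not called for activity or genotype either. Eif5, which triggers GTP hydrolysis on eIF2, had means of 226.9 ± 17.8 in IW, 220.6 ± 3.63 in IM, 214.8 ± 23.8 in AW and 198.5 ± 7.52 in AM (SD, n = 3). Eif5b, which joins the large subunit, had means of 171 ± 8.30, 166.5 ± 4.07, 161.5 ± 12.8 and 171 ± 13.5 in the same order. Eif5a, which helps the ribosome through difficult stretches and carries hypusine, had means of 239.7 ± 20.7, 235.6 ± 4.73, 225 ± 11.9 and 235.7 ± 16.5. Eef2 was at 1729, 1612 and 1858 in IW, 1783, 1843 and 1799 in IM, 1676, 1589.9 and 1660.5 in AW and 1501, 1572 and 1894 in AM. The AM mice of Eef2 spanned the range of all other mice. Eef1a1 was at 103, 92.3 and 94.6 in IW, 96.98, 100.4 and 91.2 in IM, 92.4, 122 and 119 in AW and 106, 122.9 and 93.1 in AM, with a log2 difference with activity of 0.17 (SE 0.081, adjusted p = 0.177). In each active group 1 mouse of Eef1a1 stood at the inactive level, AW mouse 1 and AM mouse 3. Both mice also lay among the inactive mice for Eif2s2. Their slow-fibre scores were -1.01 and -1.56, against 1.08 to 2.46 in the other active mice, and a link was not tested.

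No gene of the 56, and none of all 7247 (0.0%), passed the test of the interaction, which is the activity change in myostatin-reduced mice less that in wild-type mice. The smallest adjusted p among the 56 was 0.890, and 2 genes were under an unadjusted p of 0.05 (3.57%, against 4.1% of all genes). These were Eif3a at -0.33 (SE 0.134, adjusted p = 0.890 and unadjusted p = 0.0273 by limma) and Eif3m at -0.26 (SE 0.104, unadjusted p = 0.0277), followed by Eif3c at -0.17. The 95% interval lay within 0.5 of 0 in 51 of the 56 genes.

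Pairs of groups were then compared, with the groups shared between comparisons. In AM minus IM, 2 genes were called lower (3.57%, against 7.84% of all genes called and 2.53% called lower), Eif3a at -0.37 (SE 0.095, adjusted p = 0.0342) and Eif4b at -0.29 (SE 0.081, adjusted p = 0.0491). With the mouse number as a block, a pairing that the labels do not give, Eif3a was called at -0.37 (adjusted p = 0.0274) and Eif4b was not (adjusted p = 0.0553). In that fit Eif2c2 was called at -0.60 (SE 0.132, adjusted p = 0.0250), where 8.67% of all genes were called. Eif2c2 was at 91.8, 82.9 and 77.8 normalized reads in IM and at 75.3, 54.1 and 40.8 in AM, and these did not overlap, as was so for 13 of the 56 genes (23.2%, against 29.8% of all genes). Without any 1 of the IM mice, or without AM mouse 2, 0 of the 56 genes were called in this comparison, with 86 to 219 of all genes called in place of 568. With the slow-fibre score as a covariate both calls were lost, and 175 of all genes were called. Eif4b was also lost without the filter on low values, without the mean trend in the fit, and without any 1 of the IW mice, AW mouse 2, AW mouse 3 or AM mouse 1, and Eif3a was lost without AM mouse 3.

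In IM minus IW 1 gene was called (1.79%, against 2.51% of all genes called and 1.38% called higher), Eif3c at 0.26 (SE 0.057, adjusted p = 0.0379), and it was lost without any 1 of the IW or IM mice and without AW mouse 2 or AW mouse 3. The call was also lost with the slow-fibre score as a covariate and without the mean trend in the fit. In AW minus IW 0 of the 56 genes were called (0.0276% of all genes), with 3 under an unadjusted p of 0.05 by limma (5.36%, against 14.7% of all genes). In AM minus AW 0 were called (0.207% of all genes), with 8 under an unadjusted p of 0.05 (14.3%, against 12.3%), and in AM minus IW 0 were called (2.97% of all genes), with 7 under it (12.5%, against 20.1%). The groups did not overlap in 14 of the 56 genes in IM minus IW (25.8% of all genes), in 9 in AW minus IW (17.5% of all genes), in 10 in AM minus AW (15.2% of all genes) and in 9 in AM minus IW (21.0% of all genes).

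The most calls were made in IM minus AW, groups that differ in both activity and genotype. Of the 56 genes 10 were called (17.9%), against 18.7% of all genes. The 8 higher in IM were Eif4g3 at 0.45 (SE 0.082, adjusted p = 0.00376), Eef2k at 0.60 (SE 0.134, adjusted p = 0.0103), Eef1a2 at 0.39, Eif3a at 0.35, Eif4g1 at 0.26, Eif3d at 0.25, Eif3c at 0.24 and the eIF3 subunit gene Eif3l at 0.22. The 8 and 2 genes stand beside 9.52% and 9.15% of all genes called higher and lower. The 2 lower were Eef1b2 at -0.25 and Eif4a2 at -0.20. Eif4a2 was at 259, 258 and 243 normalized reads in IM and at 292, 299 and 281 in AW. The groups did not overlap in 28 of the 56 genes, against 38.9% of all genes. The count of calls was 2 without AW mouse 3, 4 without AW mouse 2 or IM mouse 3, and 5 without IM mouse 1 or IM mouse 2, where 552 to 892 of all genes were called in place of 1353, and it was 1, Eif4g3, with the slow-fibre score as a covariate (4.64% of all genes).

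The 13 eIF3 subunit genes were not uniform in IM mice. Relative to the mean of the IW mice, Eif3a was at 125%, 131% and 117% in the IM mice, Eif3m at 126%, 120.1% and 119%, Eif3c at 122%, 120.3% and 118% and Eif3d at 111%, 114% and 124%. Eif3b, Eif3l and Eif3j were also above 100% in every IM mouse, by less. By contrast, Eif3i was at 96.9%, 97% and 96.6% and Eif3k at 90.9%, 90.3% and 97.3%. The median log2 difference of the 13 genes in IM minus IW was 0.10, with 8 above 0, and of these genes only Eif3c passed the test there. In AM mice Eif3a was at 111%, 85.9% and 93.0% and Eif3m at 113%, 100.5% and 104% of the IW mean, and these mice lay on both sides of 100% for Eif3a. Other subunit genes were above 100% in every AM mouse, with Eif3c at 112%, 102% and 111%, Eif3d at 101%, 110.5% and 120.3% and Eif3b at 102%, 107% and 113%.

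**Figure D5:**
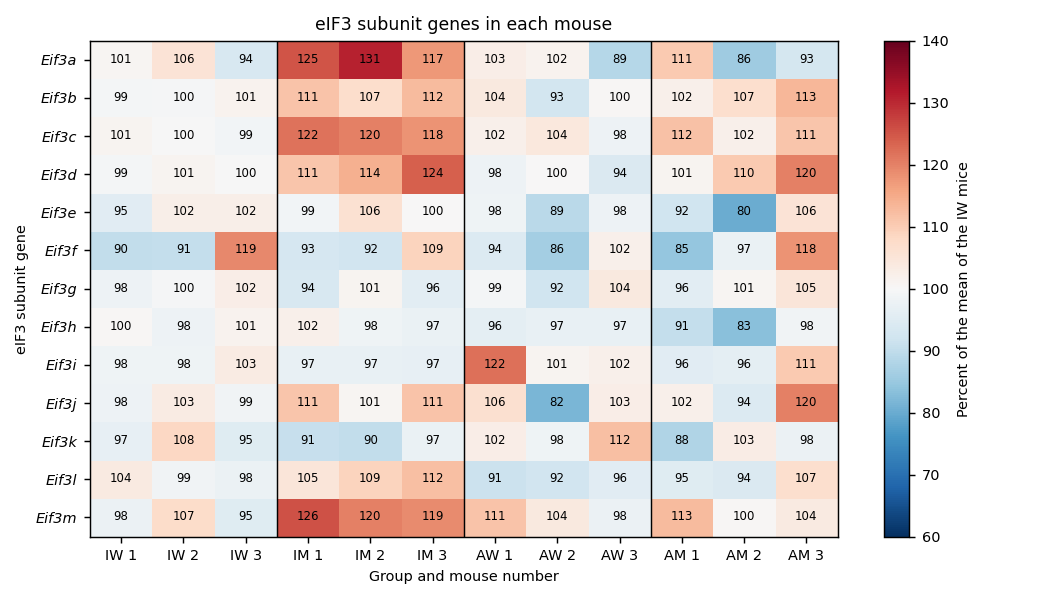
Level of the 13 eIF3 subunit genes in each mouse as a percent of the mean of the 3 IW mice, with red above and blue below 100%. The IM columns were above 100% for Eif3a, Eif3b, Eif3c, Eif3d, Eif3j, Eif3l and Eif3m and under 100% for Eif3i and Eif3k.

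Of the 61 genes 5 were under a mean of 10 normalized reads and were left out of the test, namely Eif2ak2, Eif2ak3, Eif2ak4, Eif2c3 and Eif2s3x. In a fit without that filter Eif2ak2, the kinase that double-stranded RNA activates, was called higher with activity at 0.42 (SE 0.114, adjusted p = 0.0328, against 10.7% of all genes in that fit). It was at 4.94, 4.8 and 4.17 normalized reads in IW, 6.96, 6.09 and 6.35 in IM, 8.30, 8.09 and 8.82 in AW and 9.32, 7.09 and 5.10 in AM. The AW mice were all above the IW mice, whereas AM and IM overlapped. The interaction for Eif2ak2 was -0.64 (SE 0.227, adjusted p = 0.90). Eif2ak3 and Eif2ak4, which respond to stress of the endoplasmic reticulum and to lack of amino acids, did not pass, with log2 differences of 0.13 (SE 0.133, adjusted p = 0.564) and -0.06 (SE 0.077, adjusted p = 0.643) with activity.

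Genes that act beside the factors were described from lists chosen by function. Over all 7247 genes, 7.99% were called higher and 6.51% lower with activity, 3.57% higher and 2.21% lower with genotype, and the median log2 changes were -0.02 and -0.01. In the list of the eIF4E-binding proteins and the mTORC1 pathway, which controls cap-dependent initiation, 17 genes were tested. With activity 3 were lower, Tsc1 at -0.24 (adjusted p = 0.00518), the S6 kinase gene Rps6kb1 at -0.26 (adjusted p = 0.0198) and Eif4ebp2 at -0.25 (adjusted p = 0.0442), and 0 were higher. With genotype 4 were higher in myostatin-reduced mice and 0 lower. These were Mknk1, a kinase of eIF4E, at 0.29 (adjusted p = 0.00622), Ddit4l at 0.43 (adjusted p = 0.0164), Eif4ebp2 at 0.31 (adjusted p = 0.0332) and Tsc2 at 0.23 (adjusted p = 0.0434). Tsc1, Tsc2, Ddit4l and Eif4ebp2 encode inhibitors of mTORC1 or of eIF4E. The list medians were -0.10 for activity and 0.08 for genotype, beside -0.02 and -0.01 over all genes.

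Of the 22 tested genes of cytosolic aminoacyl-tRNA synthetases and their scaffold, 6 were higher with genotype and 0 lower, and 3 were lower with activity and 0 higher. Aimp2, a scaffold of the multisynthetase complex, rose by 0.64 on the log2 scale with genotype (SE 0.113, adjusted p = 0.00872), from 102 ± 19.3 normalized reads (SD, n = 3) in IW to 173 ± 18.1 in IM and from 96.8 ± 22.2 in AW to 136 ± 13.8 in AM. Vars, Iars, Lars and Tars rose by 0.37, 0.23, 0.25 and 0.26. Eprs fell with activity by 0.28 (adjusted p = 0.0114), as did Mars by 0.19 and Iars by 0.17. The median of the list was 0.11 with genotype and -0.08 with activity, beside -0.01 and -0.02 over all genes.

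Mitochondrial translation factors, which serve the ribosomes of the organelle, gave 3 of 8 genes higher with activity and 0 lower, and none called for genotype in either direction. They were Tsfm at 0.41 (adjusted p = 0.0187), Tufm at 0.30 (adjusted p = 0.0234) and Gfm1 at 0.21 (adjusted p = 0.0328), and the list medians were 0.16 with activity and -0.003 with genotype. Of 47 cytosolic ribosomal protein genes 2 were higher with activity, Rplp0 at 0.16 and Rps2 at 0.18, and Rplp0 was lower with genotype at -0.16 (adjusted p = 0.0478), with medians of 0.05 and -0.07. Among 8 genes of the integrated stress response, which follows phosphorylation of eIF2, Ddit3 was higher (0.50, adjusted p = 0.0229) and Ppp1r15a lower (-0.26, adjusted p = 0.0401) with activity, and Impact was lower with genotype (-0.34, adjusted p = 0.0434), with medians of -0.10 and -0.09. Of 11 genes of termination, recycling and poly(A) binding only Pabpc1, the poly(A)-binding protein that contacts eIF4G, was called, higher with genotype at 0.36 (SE 0.058, adjusted p = 0.00535), and the medians were -0.001 with activity and -0.03 with genotype. Of 5 genes of hypusine synthesis, the modification of eIF5A, and of elongation modifiers, Odc1 was higher with genotype at 0.37 (adjusted p = 0.0496), with medians of -0.04 for activity and 0.16 for genotype.

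Of the 13 list genes called for activity, 3 (Tsc1, Eprs and Tsfm) were called without each of the 12 mice in turn, and 2 (Tsc1 and Rps2) with the slow-fibre score as a covariate. Of the 14 called for genotype these numbers were 4 (Mknk1, Ddit4l, Pabpc1 and Aimp2) and 7, and every other list call was lost without at least 1 mouse. Some calls lost with the score kept their log2 change, such as Impact at -0.34 and Tsc2 at 0.24 with genotype. Others shrank, such as Eif4ebp2 with activity, at -0.12 with the score and -0.25 without it.

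Messages of the translation machinery are known for a start of C followed by a run of pyrimidines, through which mTORC1 controls their translation. This start was sought in the RefSeq promoters (GRCm38.p6), which held 50 of the 61 genes, as C at the annotated first base followed by at least 4 bases of C or T. It was found in 2 of the 50 genes (4.0%), in 9 of 42 ribosomal protein genes (21.4%) and in 223 of the 7374 genes of the table with an entry (3.02%). With at least 7 pyrimidines the numbers were 2 (4.0%), 6 (14.3%) and 75 (1.02%). Both are shown with 10 bases before the annotated start, 5′ to 3′ on the strand of the gene, and capitals mark the run from the first base.
Eif3f (chr7:108934405-108934434, plus strand, GRCm38.p6): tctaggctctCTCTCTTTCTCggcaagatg
Eif2s3x (chrX:94212632-94212661, minus strand, GRCm38.p6): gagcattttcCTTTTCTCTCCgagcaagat
Eif3f was at 136, 137 and 180.5 normalized reads in IW, 141, 139.8 and 165 in IM, 143, 131 and 154 in AW and 128, 147 and 178 in AM, with overlap between all groups. The annotated first base may not be the one used in muscle, which these data did not measure. A gene in which the start was not found here may thus still have it, among the factors and the ribosomal protein genes alike.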

How the data were processed

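Triceps brachii RNA of 12 mice was analysed, in the 4 groups that the sample titles give. The authors made single-end reads of 65 bases from polyadenylated RNA (Illumina Genome Analyzer IIx). Mapping was done with CASAVA, whose version was not stated, on the mm9 build, and reads were counted per gene over RefSeq exons. The deposited signal is a normalized read count that the authors scaled to an equal trimmed mean in all samples. Use of strand and the treatment of reads with several matches were not given in the sources used here, so reads of overlapping genes could be shared. Every gene of the table had a group mean of at least 3.0 in some group, and genes below that were not analysed here.

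Genes with a mean of at least 10 normalized reads over the 12 mice (7247) were tested on log2(value + 1) with limma (version 3.58.1, R 4.3.3), with a mean for each group, contrasts and eBayes with a trend. The p-values were two-sided and Benjamini-Hochberg adjusted over these genes, and they measure the spread between these mice. A change on this scale understates that of low genes. Read counts could not be recovered from the values for nearly all genes (84.0% to 91.0% of values under 5, but 17.4% to 62.4% of values from 50 to 100, were multiples of 1 read's worth within 0.0051), so no count model was used. The limma step was also run on simulated data with independent noise for each gene. Those data lack differences between mice that many genes share, and no result here rests on them. Tables were made with Python 3.11.15.

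The genes, their roles and the related lists were chosen with earlier results of these data known. Named were the genes called for activity, genotype or interaction, the 3 with the smallest p in each, those called between pairs of groups, the 3 highest and the 3 lowest per kb, fixed sets of similar genes, genes under the filter, and at most 5 called genes per related list and comparison. Eif2s1, Eif2s2, Eif2b5, Eif3f, Eif5, Eif5b and other subunits set beside these were chosen after their values were seen.

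Lengths and copies were taken from GENCODE vM1 transcripts and NCBIM37. Each 65-base window of a transcript was searched for in the genome outside its gene on both strands. Mouse numbers 1, 2 and 3 occur in every group, and the labels do not give them as pairs. Deviations of mice with the same number correlated at 0.17 to 0.32 across genes in the 3 IM and AM pairs, and at -0.60 to 0.48 over all pairs of groups. The block was set beside the main fit for AM minus IM because of these correlations in the same data, not by design. The block in the other comparisons is given only in the closing section. Alternatives were another pseudocount, no filter, median-of-ratios scaling, array weights, no trend, the block, the slow-fibre score as a covariate and leaving out each mouse.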

Additional observations from a re-analysis of the deposited data

How the results depend on the processing

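Counts of called genes among the 56 moved with the choice of mice and of weights. With array weights 10 genes were called for activity, 2 for AW minus IW, 5 for AM minus IM, 3 for IM minus IW and 22 for IM minus AW, where 1740, 415, 931, 334 and 2449 of all 7247 genes were called in the same order. With the slow-fibre score as a covariate the counts were 0 for activity, 2 for genotype, 0 for AM minus IM, 0 for IM minus IW and 1 for IM minus AW, beside 399, 315, 175, 115 and 336 of all genes. AM minus IM gave 1 call without the filter on low values and 1 without the trend, and IM minus IW gave 0 without the trend, beside 585, 505 and 124 of all genes. Leaving out each mouse in turn gave 0 to 9 calls for activity, 0 to 3 for genotype, 0 to 3 for AM minus IM, 0 to 1 for IM minus IW, 2 to 13 for IM minus AW and 0 to 1 for AM minus IW. Over all genes the ranges in the same order were 552 to 1488, 182 to 573, 86 to 1098, 23 to 216, 552 to 1647 and 59 to 308. The cause of these differences was not tested, and a fit without a mouse also rests on fewer mice. No change of the 8 called genes reversed its direction. Over 19 alternatives Eif4g3 was called in 17, Eif4b and Eef1b2 in 13, Eef2k and Eif3c in 12, Eif2ak1 in 10, Eif4g1 in 9 and Eif3d in 4. The interaction gave 0 calls among the 56 genes under every alternative run.

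With the mouse number as a block 7 genes were called for activity, 3 for genotype, 2 for AM minus IM, 0 for IM minus IW and 10 for IM minus AW, beside 1082, 364, 628, 98 and 1341 of all genes. For activity Eif4g1 was lost (adjusted p = 0.0566) and Eif2c2, Eif3a and Eif4g3 were gained, and for genotype Eif3d was lost (adjusted p = 0.0515) and Eef1a2 gained. For IM minus IW Eif3c was lost (adjusted p = 0.0578). For IM minus AW Eif4g1 was lost (adjusted p = 0.0538) and Eif2c2 gained at 0.49 (adjusted p = 0.0274). Only 5 of the 12 mice correlated best with a mouse of their own number. At 3 mice per group the 95% interval of a gene's change with activity was within 0.25 of 0 on the log2 scale for 39 of the 56 genes.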
